A study of Mus musculus with 43 samples.

Results

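Ovaries of 3 newborn Wnt4-null mice were compared with ovaries of 3 newborn Kit mutant mice, which made up 6 of the 43 arrays of the series. The members were picked by the genotype and the stage in their labels, with earlier results of these data known. That both genotypes lose germ-cell transcripts was a premise of the choice. Each Affymetrix MOE430 v.2 array held amplified RNA from the whole gonads, freed of adjoining tissue, of 1 mouse. The Wnt4-null mice were Wnt4-/- and Foxl2+/-, and the Kit mutant mice were KitWvWv and Foxl2+/-, so both groups had kept 1 Foxl2 copy. Both were collected on the day of birth (P0) and had a mixed CD1, C57BL/6J and NIH-Swiss/BC background. No array held an ovary of this stage with Foxl2+/- and no other mutation. The wild-type P0 ovaries (3 arrays, with no mutation in their label) therefore differed from both groups in Foxl2 as well. The same contrast was measured in the absence of Foxl2 on 6 other arrays, 3 of Wnt4-/- Foxl2-/- double null and 3 of KitWvWv Foxl2-/- double mutant ovaries of P0. Loss of Wnt4 alone was measured at embryonic day 15 (E15) in 2 Wnt4-null ovaries against 2 Wnt4+/- control ovaries, whose strains were C57BL/6J and 129. The question was which genes differed between a pair of newborn ovaries that both had lost germ-cell transcripts, 1 after loss of a somatic signal and 1 after damage to a receptor on the germ cells.

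Wnt4 encodes a secreted ligand of the somatic cells of the fetal ovary, which acts through beta-catenin and is needed for ovary differentiation. XX gonads of Wnt4-null mice are known to gain steroid-producing cells and a vessel of the testis type, and to lose most oocytes before birth. Kit is a tyrosine kinase receptor on germ cells, and its ligand Kitl is made by the somatic cells around them. Kit signalling carries primordial germ cells through migration, division and survival, and the Wv allele, a hypomorph by the study's methods, leaves the newborn ovary with few germ cells. Foxl2 is a forkhead transcription factor of the pre-granulosa cells, the supporting cells that will enclose the oocytes.

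Signals are given as multiples of the mean over all probe sets, which the deposited scaling had made the same on every array. Differences are log2 fold changes from limma with 1% of that mean added before the logarithm, which understates the change of genes with low signal, and ± marks their standard error. A gene was called when the Benjamini-Hochberg adjusted p of this fit over all 45007 probe sets was under 0.05, and all adjusted p-values below are of this kind. The correlation of log2 signals was 0.971 to 0.977 between Wnt4-null arrays, 0.946 to 0.977 between Kit mutant arrays and 0.902 to 0.949 across the groups, so the least alike Kit mutant pair was within the range of the pairs across the groups. The median signal per array was 0.207 to 0.217 in Wnt4-null and 0.25 to 0.265 in Kit mutant ovaries, without overlap, so the median gene lay at -0.20 on the log2 scale. Kit mutant array 1 deviated most from its group mean, with a residual SD of 0.569 on the log2 scale against 0.41 and 0.414 on the other 2 Kit mutant arrays and 0.363 to 0.402 on the Wnt4-null arrays.

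The altered genes were measured first. Wnt4 was at 0.284, 0.306 and 0.200 in Wnt4-null ovaries and at 2.29, 2.06 and 1.85 in Kit mutant ovaries, a difference of -2.94 ± 0.28 (adjusted p = 1.3e-09). A second Wnt4 probe set gave -3.56. In wild-type ovaries Wnt4 averaged 0.684 ± 0.0897 (SD, n = 3), so its signal lay below wild type in Wnt4-null ovaries and above it in Kit mutant ovaries by 1.58 on the log2 scale (adjusted p = 5.05e-05). Kit itself did not separate the groups, with 0.38, 0.945 and 0.751 in Wnt4-null ovaries and 0.532, 0.689 and 0.858 in Kit mutant ovaries (difference -0.07 ± 0.42, adjusted p = 0.922). Both groups were below the wild-type mean of 2.92. The Wv allele is still transcribed, so this signal does not check the Kit genotype. Foxl2 was at 5.13, 5.35 and 5.9 in Wnt4-null ovaries and at 19.5, 32.6 and 23.4 in Kit mutant ovaries, against a wild-type mean of 16. The groups, which carried the same number of Foxl2 copies by label, thus did not overlap in Foxl2 signal (-2.17 ± 0.51, adjusted p = 0.00227; adjusted p = 0.051 with a pseudocount of 0.1%). In the groups labelled Foxl2-/-, the Foxl2 signal was 0.682 to 0.826 in the Wnt4 Foxl2 double null and 3.56 to 7.64 in the Kit Foxl2 double mutant ovaries. Whether the probe sets of Wnt4 and Foxl2 lie inside the deleted parts was not checked.

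Of 18184 genes, 1627 (8.95%) were called higher and 2711 (14.9%) lower in Wnt4-null than in Kit mutant ovaries, 4338 (23.9%) in all. Quantile normalization gave 2013 higher and 1713 lower, and centring each array on its median gave 2759 higher and 1108 lower, so the balance of rises and falls was set by the scaling. The 3 and 3 arrays did not overlap in 7728 genes (42.5%). Without Kit mutant array 1 the number of called genes was 2616, with 1024 higher and 1592 lower.

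**Figure D1:**
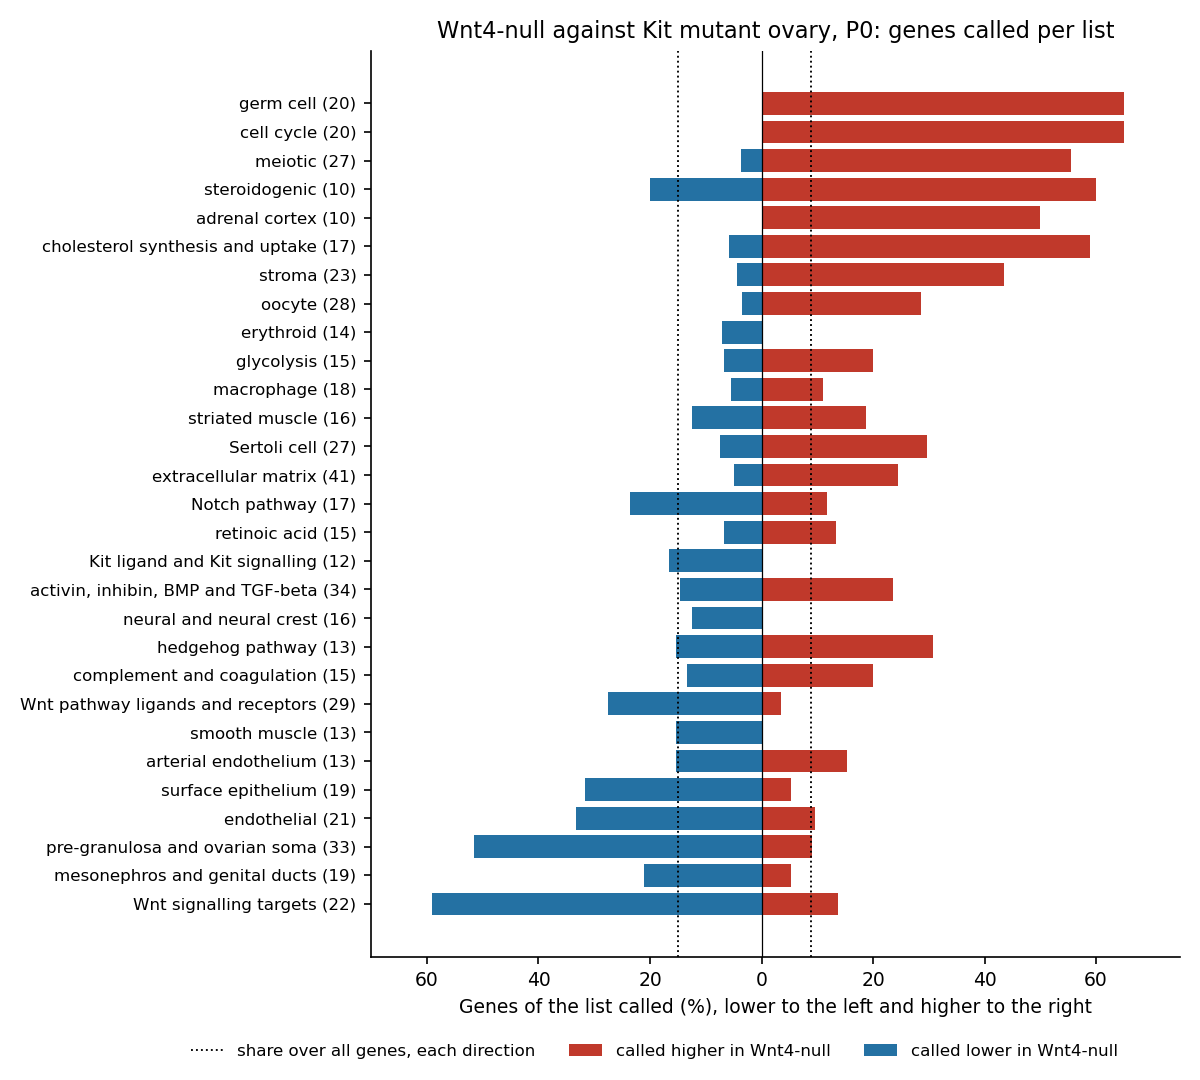
Each row is a list of genes with the number of measured members in brackets, and the bars give the percentage of members called higher (red, to the right) and called lower (blue, to the left) in Wnt4-null than in Kit mutant ovaries at P0. Dotted lines mark the shares over all 18184 genes, 8.95% higher and 14.9% lower. Rows are ordered by the median log2 fold change of the list, with germ cell and cell cycle genes at the top and Wnt signalling targets at the bottom. Other scalings and left-out arrays changed this order at both ends. After quantile normalization, for example, meiotic genes (median 1.38) stood above cell cycle genes (1.26).

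Steroidogenic genes were among the largest rises. Of 10 measured steroidogenic genes, 6 were called higher and 2 lower in Wnt4-null ovaries, with a median of 1.08 beside -0.20 over all genes. Cyp11a1, whose enzyme cleaves the cholesterol side chain as the entry step of steroid synthesis, was at 3.86, 1.62 and 2.11 in Wnt4-null ovaries and at 0.00729, 0.0104 and 0.0104 in Kit mutant ovaries. This was the largest rise named by the rule (6.94 ± 0.64, adjusted p = 1.11e-09), and all 3 Kit mutant arrays were at about the value added before the logarithm. A second, dimmer Cyp11a1 probe set went the other way (-2.02 ± 0.40, adjusted p = 3.16e-04), with means of 0.137 in Wnt4-null and 0.597 in Kit mutant ovaries, so the probe sets of this gene disagreed. Cyp17a1, the 17-alpha-hydroxylase that leads to androgens, was at 4.25, 1.57 and 1.56 in Wnt4-null ovaries and at 0.0648, 0.116 and 0.0448 in Kit mutant ovaries (4.78 ± 0.69, adjusted p = 4.5e-06). Wnt4-null array 1 was the highest array for both genes.

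The rises also took in the last step of testosterone synthesis and the supply of cholesterol. Hsd17b3, the testicular enzyme that makes testosterone, was at 1.51, 0.908 and 0.437 in Wnt4-null ovaries and at 0.159, 0.0406 and 0.0373 in Kit mutant ovaries (3.53 ± 0.47, adjusted p = 1.07e-06). Star, which carries cholesterol into mitochondria, was at 6.7, 3.7 and 3.64 in Wnt4-null ovaries and at 1.35, 1.46 and 1.06 in Kit mutant ovaries (1.81 ± 0.32, adjusted p = 1.01e-04). The groups did not overlap in either gene. Scarb1, the receptor for high-density lipoprotein, and Fdx1, the ferredoxin that feeds electrons to mitochondrial P450 enzymes, also rose, by 1.40 and 0.76. Hsd3b1 did not separate the groups, with 3.54, 1.97 and 2.62 in Wnt4-null ovaries and 1.82, 2.31 and 2.3 in Kit mutant ovaries. The falls were Hsd17b7 and Akr1c14, the 3-alpha-hydroxysteroid dehydrogenase that converts dihydrotestosterone and other 5-alpha-reduced steroids. Akr1c14 was at 0.858, 1.2 and 0.826 in Wnt4-null ovaries and at 4.74, 9.7 and 6.05 in Kit mutant ovaries (-2.77 ± 0.23, adjusted p = 1.26e-10). Hsd17b7 lost its call without Kit mutant array 2 or Wnt4-null array 2 or 3, which left 1 fall in the list.

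Markers of the adrenal cortex were counted in the same ovaries, since XX gonads without Wnt4 are known to hold adrenal-type cells. Of 10 measured genes 5 were called higher and none lower, with a median of 1.07. Cyp21a1, the steroid 21-hydroxylase of the adrenal cortex, was at 4.26, 2.38 and 2.07 in Wnt4-null ovaries and at 0.0682, 0.12 and 0.122 in Kit mutant ovaries (4.65 ± 0.53, adjusted p = 5.9e-08). It lay above the P0 testis mean of 0.529, although a second Cyp21a1 probe set with low signal went the other way (-1.76 ± 0.55, adjusted p = 0.0193) and a near-identical pseudogene may share its probes. Cyp11b1, the 11-beta-hydroxylase, was at 1.76, 1.04 and 0.588 in Wnt4-null ovaries and at 0.152, 0.211 and 0.183 in Kit mutant ovaries (2.44 ± 0.57, adjusted p = 0.00208). Mc2r, the receptor for corticotropin, was at 0.237, 0.15 and 0.106 in Wnt4-null ovaries and at 0.0141, 0.101 and 0.0867 in Kit mutant ovaries and was not called (adjusted p = 0.0808), though it was with quantile normalization, centring on the median or without Kit mutant array 2. The other 3 called members were Fdx1, Pcsk5 and Melk, none of which is particular to the adrenal. Summed over the 10 genes, the signal was 23.1 to 33.2 in Wnt4-null ovaries, 11.5 to 14 in Kit mutant ovaries and 11.6 to 12.6 in wild-type ovaries. In P0 testes it was 18.5 to 25.6, which overlapped the Wnt4-null range. Much of the sum came from Fdx1 (means of 15.8 in Wnt4-null and 9.27 in Kit mutant ovaries) and Pcsk5 (5.97 and 2.24), so it does not measure adrenal markers alone. Whether adrenal-type cells contributed to the steroidogenic rises was not tested.

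Genes of cholesterol synthesis and uptake rose with the enzymes that use cholesterol. Of 17 measured genes, 10 were called higher and 1 (Hsd17b7, which also stands in the steroidogenic list) lower, with a median of 0.78. Fdps, which makes farnesyl pyrophosphate, was at 1.18, 0.789 and 0.889 in Wnt4-null ovaries and at 0.239, 0.217 and 0.305 in Kit mutant ovaries (1.86 ± 0.24, adjusted p = 4.59e-07). Insig1, which retains the sterol sensor in the endoplasmic reticulum, was at 6.64, 7.32 and 7.01 in Wnt4-null ovaries and at 1.26, 2.1 and 3.17 in Kit mutant ovaries (1.78 ± 0.24, adjusted p = 9.96e-07). Its wild-type mean was 10, above both groups, whereas the wild-type mean of Fdps, 0.511, lay between them. Sqle and Idi1 rose by 1.41 and 1.01.

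**Figure D2:**
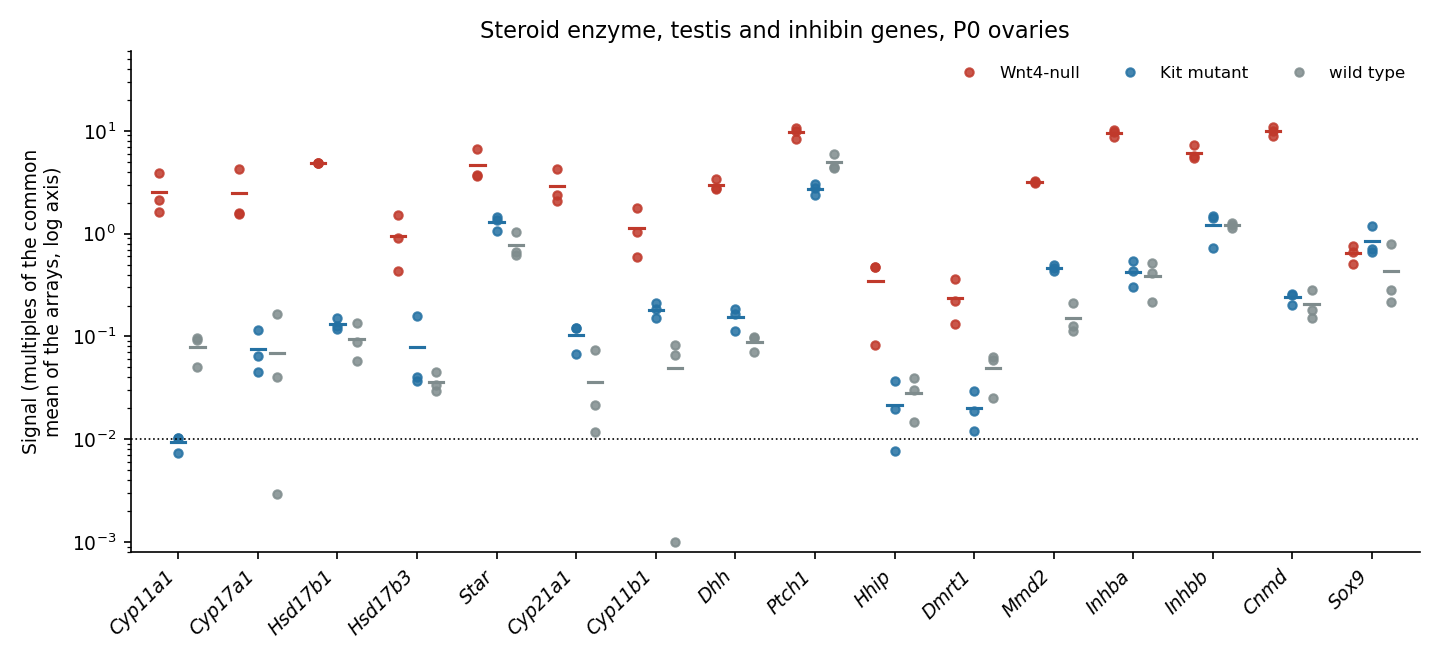
Signal of 16 genes on each P0 array (log axis, multiples of the common mean), with Wnt4-null arrays in red, Kit mutant arrays in blue and wild-type arrays in grey. Horizontal marks are group means, the dotted line is the pseudocount of 0.01, and values under 0.001 are drawn at 0.001. In 15 of the 16 genes the 3 Wnt4-null arrays lay above the 3 Kit mutant arrays, and Sox9 was the exception.

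Genes of the Sertoli cell, the supporting cell of the testis, split. Of 27 measured genes, 8 were called higher, 2 lower and 17 neither way, with a median of 0.22. Dhh, the hedgehog ligand that Sertoli cells send to Leydig cells, was at 3.41, 2.69 and 2.76 in Wnt4-null ovaries and at 0.114, 0.165 and 0.183 in Kit mutant ovaries (4.19 ± 0.36, adjusted p = 3.72e-10). A second, dim Dhh probe set was not called (-0.10). Hsd17b1, which converts estrone to estradiol and is also made by fetal Sertoli cells, was at 4.87, 4.87 and 4.86 in Wnt4-null ovaries and at 0.128, 0.118 and 0.151 in Kit mutant ovaries (5.11 ± 0.47, adjusted p = 7.87e-10). The means in P0 testes, which by the study's methods came from Wnt4-null mice, were 5.42 for Dhh and 2.5 for Hsd17b1.

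Dmrt1, a transcription factor that maintains the Sertoli fate after birth, was at 0.221, 0.133 and 0.362 in Wnt4-null ovaries and at 0.0294, 0.0121 and 0.0188 in Kit mutant ovaries (2.98 ± 0.49, adjusted p = 2.78e-05). The Wnt4-null signal remained far below the testis mean of 4.68. Mmd2 rose by 2.76, and Cst9, Defb19, Rhox5 and Sox8 by 1.13 to 1.96. Sox9, the transcription factor that sets the Sertoli fate, was at 0.664, 0.505 and 0.764 in Wnt4-null ovaries and at 0.701, 0.664 and 1.19 in Kit mutant ovaries. It was not called on any of its 3 probe sets (-0.37 ± 0.36, adjusted p = 0.493 on the brightest), against a testis mean of 2.71. Amh, the hormone by which Sertoli cells remove the female ducts, and Fgf9, a growth factor of the early testis, were not called either (-0.42 and -0.26). Wt1 and Mro were called lower, by 0.73 and 1.15, but Mro lost its call without Kit mutant array 1 and was 1.13 higher in the double null than in the double mutant ovaries of the contrast without Foxl2. With arrays centred on the median neither was called (adjusted p = 0.0613 for Wt1 and 0.0523 for Mro), and the list held 11 rises and no fall. Sox8 lost its call when any of 4 arrays was left out: Kit mutant array 2 or 3, or Wnt4-null array 1 or 2.

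The response genes of the hedgehog pathway moved with Dhh. Of 13 measured genes, Dhh, Hhip, Gli1 and Ptch1 were called higher, and Cdon and Sufu lower. Ptch1, the receptor and a target of the pathway, was at 10, 10.7 and 8.39 in Wnt4-null ovaries and at 2.38, 3.06 and 2.79 in Kit mutant ovaries (1.82 ± 0.17, adjusted p = 1.19e-09). Its wild-type mean was 4.92, between the groups. Hhip, a target that binds hedgehog ligands, was at 0.478, 0.476 and 0.0821 in Wnt4-null ovaries and at 0.0371, 0.0199 and 0.00776 in Kit mutant ovaries (3.26 ± 0.61, adjusted p = 1.86e-04). Another Hhip probe set gave 2.58 (adjusted p = 1.28e-04), while others gave 1.16 and 1.05 and were not called (adjusted p = 0.174 and 0.17). Gli1, the transcription factor induced by the pathway, rose by 2.68 ± 0.59 (adjusted p = 0.00121), and was at 0.0105 on Kit mutant array 1 alone against 0.134 and 0.154 on the other 2. Without that array the rise of Gli1 was 1.71 (adjusted p = 0.0403). Shh and Ihh, the other ligands, were not called (-0.52 and -0.57). The falls of Cdon, a coreceptor, and Sufu were 0.99 and 0.56, and Sufu lost its call when any array but Wnt4-null array 2 was left out. Sufu and Gli1 are named here after their values were seen.

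Activin subunits and their antagonist moved in opposite directions. Inhba, the beta-A subunit shared by activin and inhibin, was at 9.7, 10.1 and 8.76 in Wnt4-null ovaries and at 0.3, 0.545 and 0.434 in Kit mutant ovaries (4.49 ± 0.48, adjusted p = 1.61e-08). Inhbb, the beta-B subunit, was at 7.2, 5.67 and 5.46 in Wnt4-null ovaries and at 0.72, 1.41 and 1.5 in Kit mutant ovaries (2.39 ± 0.21, adjusted p = 4.55e-10). Fst, which binds and blocks activin, was at 0.416, 0.455 and 0.494 in Wnt4-null ovaries and at 2.77, 3.13 and 3.34 in Kit mutant ovaries (-2.73 ± 0.33, adjusted p = 1.25e-07). The alpha subunit Inha was at 3.37, 3.15 and 2.79 in Wnt4-null ovaries and at 3.28, 1.65 and 1.82 in Kit mutant ovaries and was not called. Smad3, which carries the activin signal to the nucleus, was at 2.61, 3.24 and 3.35 in Wnt4-null ovaries and at 8.39, 9.08 and 7.83 in Kit mutant ovaries (-1.46 ± 0.12, adjusted p = 1.62e-10). The wild-type mean of Smad3 was 9.16, beside the Kit mutant arrays. Beside shares of 8.95% higher and 14.9% lower over all genes, 8 of 34 activin, inhibin, BMP and TGF-beta genes were called higher. In this list 5 were called lower, which is near the share over all genes, and the median was -0.03. Without Kit mutant array 1, 4 were called higher and 6 lower, and 5 were called higher without Wnt4-null array 1.

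Wnt signalling targets were mostly lower. Of 22 measured genes, 13 were called lower and 3 higher in Wnt4-null ovaries, with a median of -0.83. Axin2, the feedback inhibitor that serves as the usual readout of beta-catenin signalling, was at 1.07, 1.54 and 1.72 in Wnt4-null ovaries and at 4.2, 4.79 and 5.2 in Kit mutant ovaries (-1.73 ± 0.20, adjusted p = 4.9e-08). Nkd2, which dampens the pathway at Dishevelled, was at 0.625, 0.606 and 0.414 in Wnt4-null ovaries and at 4.09, 4.11 and 3.12 in Kit mutant ovaries (-2.77 ± 0.26, adjusted p = 1.11e-09). Its relative Nkd1 fell by 1.88. Lgr5, the R-spondin receptor of the ovarian surface and pre-granulosa cells, was at 0.026, 0.073 and 0.153 in Wnt4-null ovaries and at 1.75, 1.18 and 1.21 in Kit mutant ovaries (-4.12 ± 0.44, adjusted p = 1.57e-08), and was also 1 of the 12 largest falls. Lef1, a nuclear partner of beta-catenin, fell by 0.86 (adjusted p = 0.023), a call that was lost with centring on the median, in a fit of only the 6 arrays and without Kit mutant array 3 or Wnt4-null array 1. The rises were Myc, Sfrp1 and Wif1 (1.0, 0.85 and 1.31), which are named here because they complete the count. Sfrp1 and Wif1 are secreted Wnt inhibitors and Myc is a growth regulator with many other inputs. Sfrp1 lost its call without Kit mutant array 1, and Wif1 without Kit mutant array 2 or 3 or Wnt4-null array 1 or 2.

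Because these genes are read out through LEF and TCF factors, the 250 bases before their transcription starts in RefSeq (mouse build GRCm38.p6) were searched for the letters CTTTGAT on both strands. This motif and the 2 others given further on were kept after the counts of several motifs had been seen. Of the 22 Wnt targets, called or not, 13 had a window and 2 of these, Sp5 and Tnfrsf19, held the letters (15.4%), beside 1005 of 27025 genes (3.72%). A match is a description of letters and not a binding site. Both windows are shown 5′ to 3′ on the strand of the gene, with the match in capitals, which in Tnfrsf19 is the reverse complement. The Sp5 window lies on the plus strand of chromosome 2 (chr2:70474673-70474922) and the Tnfrsf19 window, 1 of 2 for this gene, on the minus strand of chromosome 14 (chr14:61037988-61038237).
Sp5: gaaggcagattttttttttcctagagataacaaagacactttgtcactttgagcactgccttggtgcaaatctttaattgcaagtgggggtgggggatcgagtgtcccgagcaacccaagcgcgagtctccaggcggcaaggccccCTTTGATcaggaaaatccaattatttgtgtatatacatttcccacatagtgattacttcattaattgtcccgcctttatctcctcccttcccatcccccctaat
Tnfrsf19: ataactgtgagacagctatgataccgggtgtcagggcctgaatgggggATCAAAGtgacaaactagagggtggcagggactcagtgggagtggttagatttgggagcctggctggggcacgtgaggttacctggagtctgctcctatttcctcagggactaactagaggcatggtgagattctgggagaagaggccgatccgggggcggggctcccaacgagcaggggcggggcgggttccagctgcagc

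Tnfrsf19, a receptor of the tumour necrosis factor family that Wnt signalling induces, was at 0.343, 0.739 and 0.626 in Wnt4-null ovaries and at 3.1, 5.38 and 4.97 in Kit mutant ovaries (-2.99 ± 0.32, adjusted p = 1.69e-08). Sp5, a transcription factor that is a direct Wnt target in embryos, was at 0.136, 0.138 and 0.133 in Wnt4-null ovaries and at 1.03, 0.945 and 0.889 in Kit mutant ovaries (-2.72 ± 0.52, adjusted p = 2.06e-04). Sp5 was singled out for its window after its values were seen. Neither gene overlapped between the groups, and both were also lower in E15 Wnt4-null than in E15 control ovaries, by 2.57 for Sp5 and 2.0 for Tnfrsf19.

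Other ligands of the pathway fell beside Wnt4. Of 29 ligands, receptors and modulators, 8 were called lower and 1, Wnt5a, higher (0.65), with a median of -0.23 that turned to 0.04 when arrays were centred on the median. Wnt6 was at 0.964, 1.01 and 1.28 in Wnt4-null ovaries and at 6.95, 4.97 and 5.67 in Kit mutant ovaries (-2.42 ± 0.22, adjusted p = 4.55e-10). Wnt2b was at 0.185, 0.214 and 0.223 in Wnt4-null ovaries and at 1.21, 1.01 and 0.609 in Kit mutant ovaries (-2.08 ± 0.33, adjusted p = 1.54e-05). Rspo1, the R-spondin that acts upstream of Wnt4 in the ovary, was at 2.83, 3.3 and 3.7 in Wnt4-null ovaries and at 11, 7.89 and 8.2 in Kit mutant ovaries (-1.45 ± 0.23, adjusted p = 1.6e-05). For all 3 ligands the wild-type mean lay between the groups (3.05, 0.516 and 5.52). Without Kit mutant array 1, Wnt5a lost its call.

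**Figure D3:**
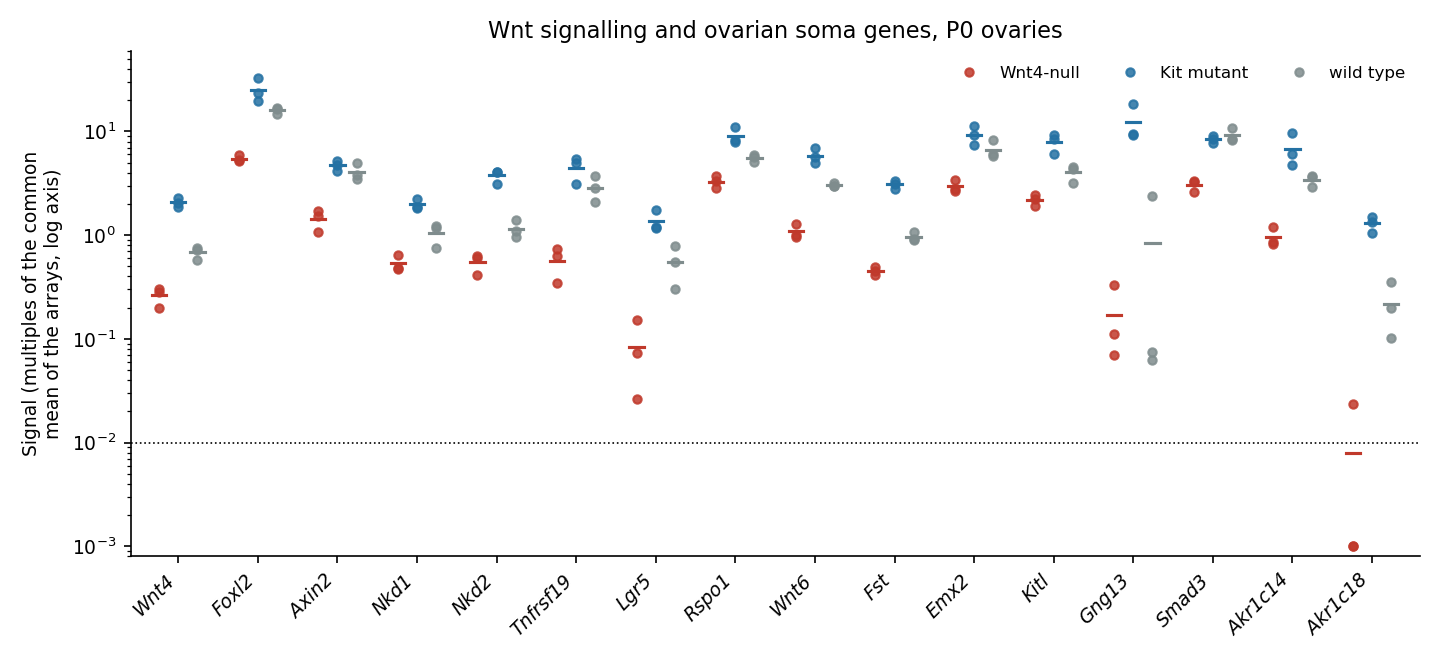
Signal of 16 genes on each P0 array (log axis, multiples of the common mean), with Wnt4-null arrays in red, Kit mutant arrays in blue and wild-type arrays in grey. Horizontal marks are group means, the dotted line is the pseudocount of 0.01, and values under 0.001 are drawn at 0.001. In all 16 genes the 3 Wnt4-null arrays lay below the 3 Kit mutant arrays, by up to 6.43 on the log2 scale for Akr1c18.

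Markers of pre-granulosa cells and ovarian soma, some of which stand in the Wnt lists too, were mostly lower. Of 33 measured genes, 17 were called lower and 3 higher, with a median of -0.75. The summed signal of the list was 70.4 to 73.9 in Wnt4-null ovaries, 133 to 145 in Kit mutant ovaries and 79.2 to 90.2 in wild-type ovaries. The rises were Inhba, Inhbb and Irx2, of which the first 2 are also Sertoli cell products, and Irx2 lost its call without Kit mutant array 1 or 3 or Wnt4-null array 1 or 3. Against wild type, 12 of the 33 were called lower in Wnt4-null ovaries and 11 called higher in Kit mutant ovaries, comparisons that share arrays with the main one. The same shares over all genes were 9.87% and 17.3%. Kitl, the ligand of Kit, was at 2.22, 2.44 and 1.92 in Wnt4-null ovaries and at 6.12, 9.27 and 8.39 in Kit mutant ovaries (-1.83 ± 0.25, adjusted p = 1.49e-06), with a wild-type mean of 4.04. In whole gonads, fewer cells of a type and less RNA per cell cannot be told apart.

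Gng13, a gamma subunit of G proteins, showed the second largest fall. It was at 0.332, 0.112 and 0.0696 in Wnt4-null ovaries and at 18.4, 9.33 and 9.39 in Kit mutant ovaries (-6.30 ± 0.87, adjusted p = 1.96e-06). The wild-type arrays disagreed, with 0.0623, 0.0755 and 2.39, so Gng13 was high in all Kit mutant ovaries and in only 1 wild-type ovary. Emx2, a homeobox factor of the gonadal surface and the mesonephros, was at 2.78, 2.64 and 3.42 in Wnt4-null ovaries and at 7.32, 9.27 and 11.4 in Kit mutant ovaries (-1.64 ± 0.26, adjusted p = 1.63e-05). The keratins Krt8 and Krt18 of surface epithelium fell by 1.77 and 1.53. In that list 6 of 19 genes were called lower, 12 neither way and 1, the gonadal homeobox gene Lhx9, higher (1.09). The shares over all genes were 14.9% lower and 8.95% higher. Lgr5, Emx2 and Wt1, which are among the falls, also stand in other lists given here. With arrays centred on the median 4 genes were called lower.

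Germ-cell transcripts did not fall to the same level in the 2 mutants. Of 20 measured germ-cell genes, 13 were called higher in Wnt4-null ovaries, none lower and 7 neither way, with a median of 2.15. Against wild type, 15 of the 20 were called lower in Wnt4-null and 18 in Kit mutant ovaries, beside 9.87% and 13.3% of all genes. The median germ-cell gene was at 27% of the wild-type signal in Wnt4-null and at 5.68% in Kit mutant ovaries. Dazl, an RNA-binding protein that germ cells need to enter meiosis, was at 1.03, 1.74 and 1.38 in Wnt4-null ovaries and at 0.0688, 0.209 and 0.277 in Kit mutant ovaries (3.0 ± 0.39, adjusted p = 6.66e-07), against a wild-type mean of 4.53. Ddx4, the germ-cell RNA helicase, was at 0.227, 0.527 and 0.445 in Wnt4-null ovaries and at 7.51e-06, 0.102 and 0.195 in Kit mutant ovaries (2.66 ± 0.59, adjusted p = 0.00123). Its difference was 1.35 without Kit mutant array 1, and it was not called in a fit of only the 6 arrays (adjusted p = 0.0653). Piwil2, a partner of small RNAs that silence transposons, was at 2.23, 4.2 and 3.14 in Wnt4-null ovaries and at 0.14, 0.808 and 0.739 in Kit mutant ovaries (2.78 ± 0.46, adjusted p = 3.7e-05). Kit mutant array 1 was the lowest array for all 3 genes, and without it 10 of the 20 were called higher. Pou5f1, a gene of pluripotent germ cells, was not called between the groups (-0.62).

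Meiotic genes followed the germ-cell genes, with 15 of 27 called higher, 1 lower and a median of 1.17. Their median level was 37.5% of wild type in Wnt4-null and 10.6% in Kit mutant ovaries. Sycp3, a lateral element of the synaptonemal complex, was at 1.93, 3.45 and 3.51 in Wnt4-null ovaries and at 0.495, 1.1 and 1.19 in Kit mutant ovaries (1.71 ± 0.39, adjusted p = 0.00152), against a wild-type mean of 9.29. Meiob, which binds single-stranded DNA during recombination, was at 0.108, 0.125 and 0.0937 in Wnt4-null ovaries and at 1.23e-05, 0.0147 and 1.77e-05 in Kit mutant ovaries (3.13 ± 0.55, adjusted p = 6.99e-05). The single fall was Rec8, the meiotic cohesin, which is named after its values were seen. It was at 0.189, 0.298 and 0.437 in Wnt4-null ovaries and at 2.67, 2.14 and 0.876 in Kit mutant ovaries (-2.52 ± 0.69, adjusted p = 0.00796), and its wild-type mean of 0.416 lay with the Wnt4-null arrays. Rec8 was no longer called without Kit mutant array 1.

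**Figure D4:**
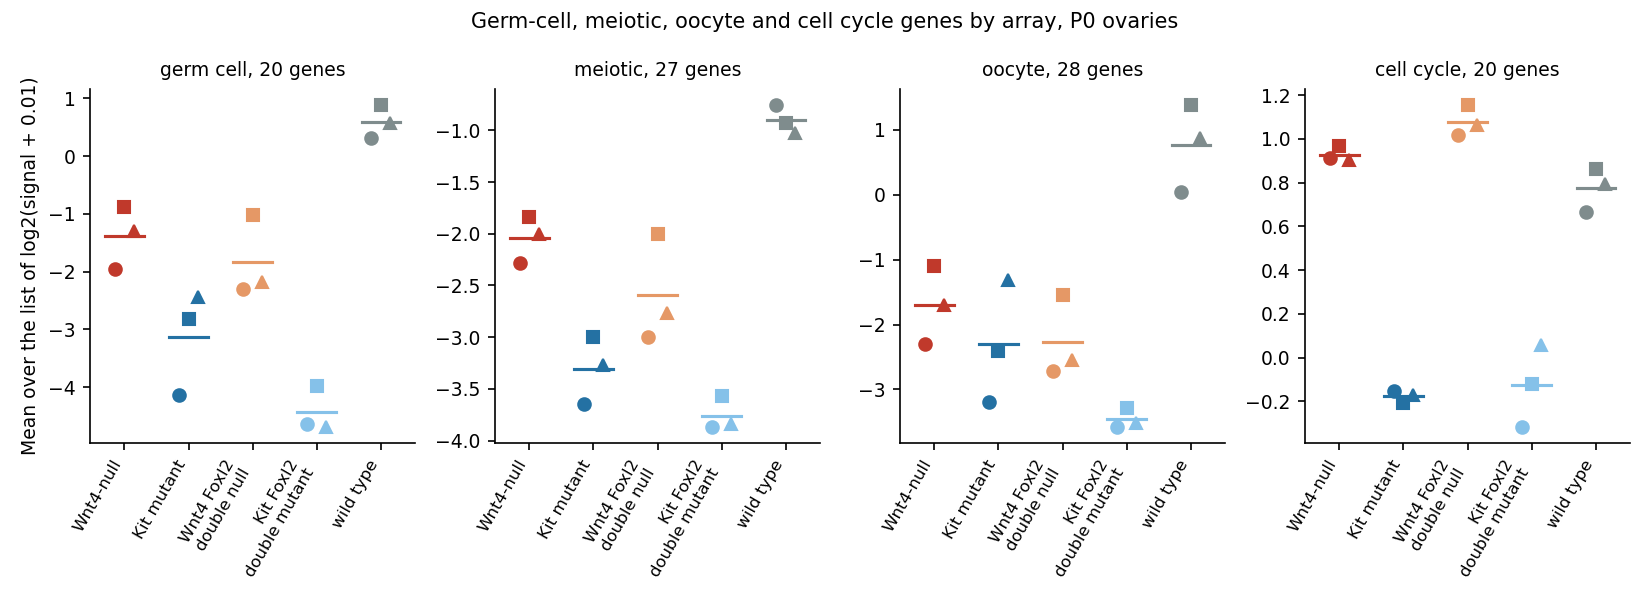
Mean over each list of log2(signal + 0.01) on each array of 5 P0 groups, for germ cell, meiotic, oocyte and cell cycle genes. Circles, squares and triangles are arrays 1, 2 and 3 and horizontal marks are group means. Wnt4-null arrays lay above Kit mutant arrays in the germ cell, meiotic and cell cycle panels, and Kit mutant array 3 lay among the Wnt4-null arrays in the oocyte panel.

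Of 28 measured oocyte genes 8 were called higher in Wnt4-null ovaries, 1 lower and 19 neither way, with a median of 0.44. The fall was Tle6 (-0.71, adjusted p = 0.0499). Its call was lost when any array but Wnt4-null array 2 was left out. Lhx8, a homeobox factor needed for primordial follicles, was at 1.2, 2.51 and 2.08 in Wnt4-null ovaries and at 0.0156, 0.351 and 0.523 in Kit mutant ovaries (3.44 ± 0.85, adjusted p = 0.00353). Figla, which switches on the zona pellucida genes, was at 0.839, 1.67 and 1.16 in Wnt4-null ovaries and at 0.0823, 0.492 and 0.375 in Kit mutant ovaries (2.18 ± 0.72, adjusted p = 0.0264). Without Kit mutant array 1 these differences were 2.08 and 1.43, neither was called, and 3 of the 28 genes were called higher. Figla also lost its call without Wnt4-null array 2 or 3, and 5 of the 28 genes were called higher without Wnt4-null array 2. Nobox, a homeobox factor of the same stage, was at 0.412, 1.45 and 1.04 in Wnt4-null ovaries and at 0.129, 0.254 and 0.487 in Kit mutant ovaries and missed the threshold (1.71 ± 0.66, adjusted p = 0.0594), though it was called without Kit mutant array 3 or Wnt4-null array 1 (2.17 and 2.23).

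The zona pellucida genes, which encode the egg coat, went with 1 array. Zp3 was at 0.0098, 0.294 and 0.128 in Wnt4-null ovaries and at 0.0201, 0.022 and 19.2 in Kit mutant ovaries, so Kit mutant array 3 alone lay above all wild-type arrays (0.983, 4.4 and 2.89). The fitted difference was -1.49 ± 1.16 (adjusted p = 0.374) with that array and 1.60 without it (adjusted p = 0.0741). Zp2 was at 0.0416, 0.682 and 0.37 in Wnt4-null ovaries and at 0.236, 0.217 and 0.732 in Kit mutant ovaries. Gdf9, the oocyte growth factor, was at 0.22, 0.739 and 0.182 in Wnt4-null ovaries and at 0.387, 0.275 and 0.337 in Kit mutant ovaries, with a wild-type mean of 4.78. Neither Zp2 nor Gdf9 was called, and both lay below wild type in both mutants. Without Kit mutant array 3, 10 of the 28 oocyte genes were called higher and none lower.

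The windows of the germ-cell genes were searched on both strands for CACGTG, an E-box. It stood in 5 of the 15 listed germ-cell genes with a window, called or not (33.3%), beside 1854 of 27025 genes (6.86%), in 3 of 13 Wnt targets (23.1%) and in none of 18 cell cycle genes. Mael, a factor of transposon silencing in germ cells, is shown as an example (GRCm38.p6, minus strand, chr1:166238745-166238994), with the E-box in capitals.
Mael: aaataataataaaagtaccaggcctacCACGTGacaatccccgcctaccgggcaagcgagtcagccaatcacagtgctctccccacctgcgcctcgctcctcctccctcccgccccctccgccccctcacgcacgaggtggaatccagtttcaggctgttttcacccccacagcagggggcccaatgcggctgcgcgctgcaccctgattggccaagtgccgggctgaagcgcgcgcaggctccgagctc

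Mael was at 1.25, 2.84 and 2.15 in Wnt4-null ovaries and at 0.108, 0.397 and 0.52 in Kit mutant ovaries (2.75 ± 0.56, adjusted p = 5.07e-04), with a wild-type mean of 8.31. It was chosen for display after its values were seen.

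Cell cycle genes separated the groups with little scatter. Of 20 measured genes, 13 were called higher in Wnt4-null ovaries and none lower, with a median of 1.22, and leaving out Kit mutant array 1 gave 14. Kif11, the kinesin that separates spindle poles, was at 2.75, 2.52 and 2.13 in Wnt4-null ovaries and at 0.446, 0.625 and 0.47 in Kit mutant ovaries (2.25 ± 0.22, adjusted p = 3.1e-09). Birc5, or survivin, of the chromosomal passenger complex was at 6.82, 7.26 and 7.2 in Wnt4-null ovaries and at 2.05, 2.33 and 2.75 in Kit mutant ovaries (1.58 ± 0.15, adjusted p = 2.01e-09). Cdk1, the kinase that drives mitosis, was at 3.17, 2.92 and 2.42 in Wnt4-null ovaries and at 0.757, 0.776 and 0.964 in Kit mutant ovaries (1.76 ± 0.19, adjusted p = 1.49e-08). The wild-type means were 1.69, 11.2 and 3.01. Against wild type, 4 genes of the list were called higher and 2 lower in Wnt4-null ovaries, and none higher and 10 lower in Kit mutant ovaries. Over all genes the shares were 7.07% higher and 9.87% lower in Wnt4-null ovaries, and 17.3% higher and 13.3% lower in Kit mutant ovaries. The 7 genes that were not called between the mutants included 5 subunits of the replicative helicase (Mcm2, Mcm3, Mcm5, Mcm6 and Mcm7, -0.25 to 0.63). Whether the division of germ cells or of somatic cells carried these values was not tested.

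The letters CCAAT, the core of the box bound by the NF-Y factor, stood on either strand in the windows of 16 of the 18 listed cell cycle genes with a window (88.9%), beside 10133 of 27025 genes (37.5%), 10 of 15 germ-cell genes and 6 of 13 Wnt targets. Ccnb2, which encodes cyclin B2, had 3 copies (GRCm38.p6, minus strand, chr9:70421555-70421804) and Kif11 1 copy in reverse (plus strand, chr19:37376132-37376381), which are in capitals.
Ccnb2: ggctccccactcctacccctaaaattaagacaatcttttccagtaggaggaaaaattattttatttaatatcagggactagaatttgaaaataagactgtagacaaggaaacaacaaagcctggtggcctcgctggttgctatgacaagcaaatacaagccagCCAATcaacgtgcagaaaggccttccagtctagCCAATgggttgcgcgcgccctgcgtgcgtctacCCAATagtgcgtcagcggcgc
Kif11: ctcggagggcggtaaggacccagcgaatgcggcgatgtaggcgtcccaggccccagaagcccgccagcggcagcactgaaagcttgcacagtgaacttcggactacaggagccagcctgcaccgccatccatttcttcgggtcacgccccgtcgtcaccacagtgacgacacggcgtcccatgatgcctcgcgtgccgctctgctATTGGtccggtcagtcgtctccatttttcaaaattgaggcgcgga

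Ccnb2 was at 1.36, 1.71 and 1.57 in Wnt4-null ovaries and at 0.438, 0.444 and 0.423 in Kit mutant ovaries (1.80 ± 0.21, adjusted p = 6.64e-08), and the wild-type mean of 1.53 lay among the Wnt4-null arrays. It was singled out for its promoter.

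Stromal genes were higher in Wnt4-null ovaries, with 10 of 23 called higher, 1 lower and a median of 0.52. These rises include Ptch1, Hhip and Gli1, which were already counted with the hedgehog pathway. Pdgfra, the receptor of interstitial cells, was at 9.77, 10.9 and 10.3 in Wnt4-null ovaries and at 2.71, 3.03 and 3.24 in Kit mutant ovaries (1.78 ± 0.20, adjusted p = 3.02e-08). Igf1, a growth factor of stroma and other cells, was at 18.1, 15.1 and 15.7 in Wnt4-null ovaries and at 3.51, 4.3 and 3.54 in Kit mutant ovaries (2.10 ± 0.23, adjusted p = 3.11e-08). Ogn, a small proteoglycan, rose by 3.11 ± 0.36. The fall was Pdgfrb, the receptor of pericytes (-0.81), which is named because it completes the count. With arrays centred on the median, 16 of the 23 genes were called higher and none lower, and Pdgfrb was at -0.54 (adjusted p = 0.0769). In matrix genes 10 of 41 were called higher and 2 lower, led by the proteases Adamts5 and Adamts1 (2.88 and 1.88), while most collagens on the lists were not called (Col1a1 0.23, Col3a1 0.29, Col4a1 0.04).

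Markers of other cell types a gonad could hold moved less uniformly. Of 21 endothelial genes 7 were called lower and 2 higher, but with arrays centred on the median 3 fell and 3 rose, and leaving out Kit mutant array 3 or Wnt4-null array 3 gave 4 and 3 falls. Cldn5, the tight-junction protein of vessels, was at 0.503, 0.632 and 0.292 in Wnt4-null ovaries and at 1.75, 1.81 and 1.83 in Kit mutant ovaries (-1.97 ± 0.27, adjusted p = 1.63e-06), while Pecam1, found on all endothelium, was not called (0.05). Cxcl12, a chemokine of arteries and stroma, was at 6.45, 5.66 and 6.51 in Wnt4-null ovaries and at 2.03, 2.79 and 1.9 in Kit mutant ovaries (1.49 ± 0.37, adjusted p = 0.00336). By calls, arterial endothelium genes as a list did not rise, with 2 of 13 called higher and 2 lower. Their median was -0.46, or -0.12 after quantile normalization. Their summed signal, in which bright genes weigh most, was nevertheless higher in Wnt4-null (15.8 to 16.6) than in Kit mutant ovaries (11.7 to 14.1). The shares over all genes were 8.95% higher and 14.9% lower. Macrophage genes gave 2 rises and 1 fall of 18, erythroid genes 1 fall of 14, neural genes 2 falls of 16 and smooth muscle genes 2 falls of 13, each near or below the shares over all genes. None of the macrophage rises was called without Kit mutant array 1 or Wnt4-null array 3. Striated muscle gave 3 rises and 2 falls of 16. Its neonatal myosin Myh8 was at 2.13, 1.88 and 2.17 in Wnt4-null ovaries and at 0.334, 0.114 and 0.217 in Kit mutant ovaries (3.28 ± 0.35, adjusted p = 1.49e-08), whereas actin Acta1 was not called (0.14). Mesonephric and duct genes gave 4 falls and 1 rise of 19, and 2 falls when any 1 of 5 arrays (all but Kit mutant array 2) was left out. Ret, the receptor of the ureteric and duct epithelium, was at 0.00808, 0.00372 and 0.00642 in Wnt4-null ovaries and at 0.0737, 0.205 and 0.225 in Kit mutant ovaries (-3.34 ± 0.55).

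The remaining lists are read against the shares over all genes, 8.95% higher and 14.9% lower. Of 17 Notch pathway genes 2 were called higher and 4 lower, with Hey1 up by 1.35 and Hes1 down by 1.0. That balance turned to 4 higher and 1 lower with arrays centred on the median and was 2 and 2 after quantile normalization. Without Kit mutant array 1 it was 1 higher and 2 lower, and 2 were lower without Wnt4-null array 3. Of 15 retinoic acid genes 2 were called higher and 1 lower. No retinoic acid gene was called higher without Kit mutant array 1 or Wnt4-null array 2, and 1 was without Kit mutant array 2 or Wnt4-null array 1 or 3, while centring on the median gave 4. The fall was Crabp1, which binds retinoic acid in the cytoplasm, at 0.0834, 0.101 and 0.0803 in Wnt4-null ovaries and at 0.287, 0.851 and 1.47 in Kit mutant ovaries (-2.89 ± 0.42, adjusted p = 4.7e-06). Of 12 genes of the Kit pathway only Kitl and Etv4 were called, both lower. Complement and coagulation genes gave 3 rises and 2 falls of 15, with thrombomodulin, Thbd, at 7.2, 7.58 and 7.07 in Wnt4-null ovaries and at 0.751, 1.61 and 1.21 in Kit mutant ovaries (2.67 ± 0.35, adjusted p = 6.32e-07). The falls numbered 1 without Kit mutant array 1 or Wnt4-null array 1 or 3. Glycolysis gave 3 rises and 1 fall of 15, with 7 rises after centring on the median and 1 without Wnt4-null array 3.

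Some of the largest differences fell outside the lists. Cnmd, which encodes chondromodulin, a matrix protein of cartilage, was at 11, 10 and 8.89 in Wnt4-null ovaries and at 0.203, 0.261 and 0.255 in Kit mutant ovaries (5.32 ± 0.47, adjusted p = 4.55e-10). Nrg1, the neuregulin that signals through ErbB receptors, was at 0.87, 0.914 and 1.08 in Wnt4-null ovaries and at 0.0249, 0.0611 and 0.0171 in Kit mutant ovaries (4.56 ± 0.55, adjusted p = 1.57e-07). Tox2, an HMG-box protein, was at 6.19, 6.64 and 9.52 in Wnt4-null ovaries and at 0.186, 0.429 and 0.657 in Kit mutant ovaries (4.25 ± 0.40, adjusted p = 1.37e-09), with a wild-type mean of 3.65. Trim9, a ubiquitin ligase best known in neurons, rose by 4.35. Akr1c18, which inactivates progesterone, was at 6.46e-06, 0.000206 and 0.0234 in Wnt4-null ovaries and at 1.33, 1.51 and 1.06 in Kit mutant ovaries (-6.43 ± 0.73, adjusted p = 5.16e-08), the largest fall by the rule. Insyn2b was at 0.0202, 0.0218 and 0.0285 in Wnt4-null ovaries and at 0.764, 0.572 and 0.739 in Kit mutant ovaries (-4.39 ± 0.26, adjusted p = 1.28e-14), with a wild-type mean of 0.153. Amph, which encodes amphiphysin of endocytic membranes, and Svs5, a seminal vesicle secretory protein, fell by 3.80 and 3.79.

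Each mutant was also set beside wild type, in comparisons that share their arrays with the main one. Of all genes, 1286 (7.07%) were called higher and 1794 (9.87%) lower in Wnt4-null than in wild-type ovaries. In Kit mutant ovaries 3147 (17.3%) were called higher and 2420 (13.3%) lower than in wild-type ovaries. Cyp17a1, Inhba, Cnmd and Hsd17b1 were called against wild type in Wnt4-null ovaries (5.50, 4.68, 5.58 and 5.62) and not in Kit mutant ovaries (0.72, 0.19, 0.26 and 0.52). Lgr5 and Insyn2b were called lower than wild type in Wnt4-null ovaries, by 2.72 and 2.26, and higher in Kit mutant ovaries, by 1.39 and 2.12. Gng13 was not called against wild type in Wnt4-null ovaries (-0.72) and was higher in Kit mutant ovaries (5.58). Cdk1 was not called against wild type in Wnt4-null ovaries (-0.06) and was lower by 1.82 in Kit mutant ovaries.

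The same contrast was then read on the 6 other arrays without Foxl2, where 1717 genes (9.44%) were called higher and 2326 (12.8%) lower in Wnt4 Foxl2 double null than in Kit Foxl2 double mutant ovaries. Of the 1627 genes called higher with 1 Foxl2 copy, 1068 were also called higher without Foxl2, 65.6% of the first list and 62.2% of the second, and 4 were called lower. Of the 2711 called lower, 1389 were called lower again, 51.2% of the first list and 59.7% of the second, and 8 were called higher. The sign was kept in 95.9% of the rises and 93.9% of the falls, beside 41.6% of all genes above and 58.4% below 0 in the second contrast. Cyp11a1 differed by 7.02, Dhh by 3.64, Inhba by 5.06, Axin2 by -2.28, Dazl by 3.52 and Gng13 by -5.69 in the second contrast, all called. By list, 15 of 20 germ-cell genes, 15 of 20 cell cycle genes, 7 of 10 steroidogenic genes and 16 of 27 Sertoli cell genes were called higher there, and 14 of 22 Wnt targets and 19 of 33 ovarian soma genes lower. Sox9 was not called in the second contrast either (0.52).

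**Figure D5:**
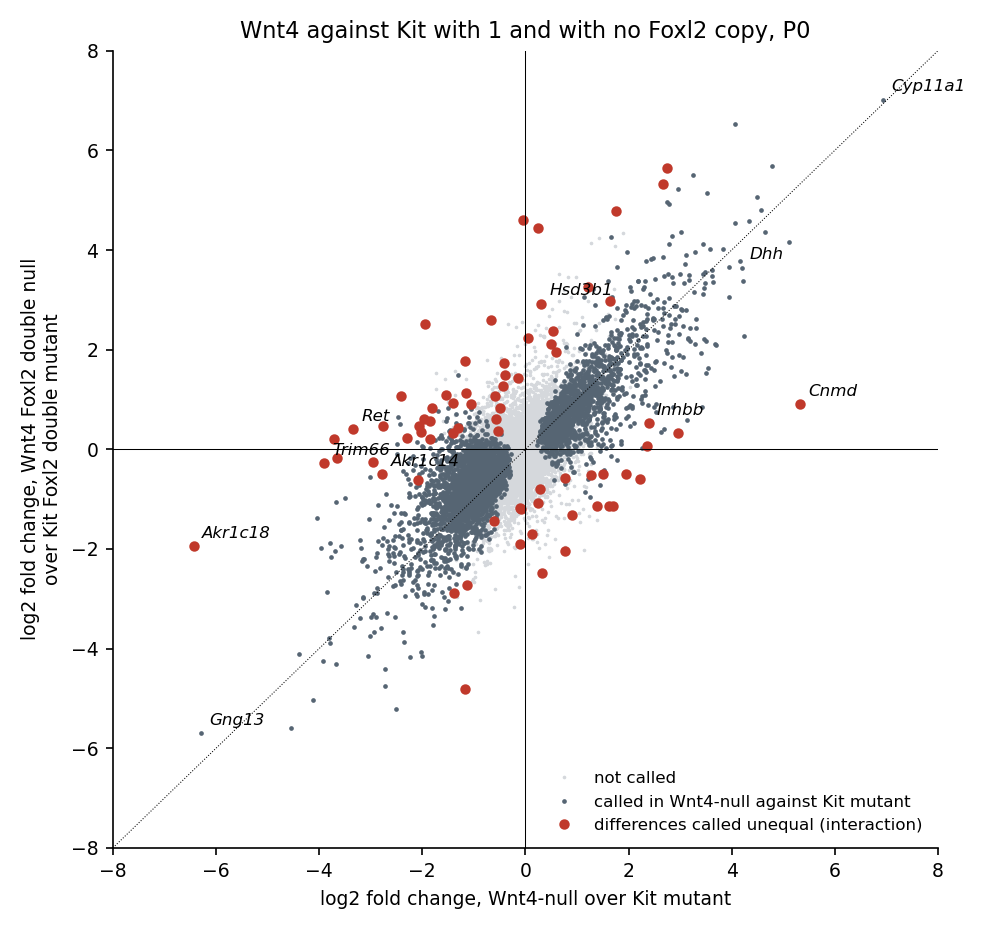
Each point is a gene, with the log2 fold change of Wnt4-null over Kit mutant ovaries (1 Foxl2 copy) on the horizontal axis and that of Wnt4 Foxl2 double null over Kit Foxl2 double mutant ovaries (no Foxl2 copy) on the vertical axis. Dark points were called in the first contrast, red points are the 71 genes whose differences were called unequal, and the dotted line marks equal differences. Cyp11a1 and Gng13 lie near the line, and Cnmd and Akr1c18 away from it.

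The difference between the 2 contrasts was tested as an interaction, which called 71 genes (0.39%), 25 with a larger value in the Foxl2+/- background and 46 with a smaller one. Cnmd stood at 0.625, 0.349 and 0.519 in the double null and at 0.44, 0.176 and 0.212 in the double mutant ovaries, so its rise of 5.32 with 1 Foxl2 copy met 0.90 without Foxl2 (interaction 4.42, adjusted p = 3.44e-04). Inhbb differed by 2.39 with 1 Foxl2 copy and by 0.53 without (interaction 1.86, adjusted p = 9.37e-04). Akr1c14 differed by -2.77 and -0.50 (interaction -2.27, adjusted p = 1.81e-04), and its signal was 1.75, 1.35 and 1.49 in the Kit Foxl2 double mutant. Hsd3b1 was the reverse case, not called with 1 Foxl2 copy (0.31) and higher by 2.92 without Foxl2 (interaction -2.62, adjusted p = 0.00467). The double null and double mutant Foxl2 signals given above overlapped neither each other nor wild type. The double mutant signals did overlap those of Wnt4-null ovaries, so the Foxl2 signal did not separate these groups by their labelled Foxl2 copies.

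At E15 the loss of Wnt4 alone, with another strain mix and 2 arrays a group, gave 273 genes (1.5%) called higher and 108 (0.594%) lower in Wnt4-null than in control ovaries. Of these 273, 148 (54.2%) were among the 1627 rises at P0, and of the 108, 76 (70.4%) were among the 2711 falls. The rises and falls at P0 held 8.95% and 14.9% of all genes. In turn, only 9.1% of the P0 rises and 2.8% of the P0 falls were called the same way at E15. The sign was kept in 67.8% of these rises and 58.9% of these falls, beside 53.8% of all genes above and 46.2% below 0 at E15. None of the P0 rises was called lower at E15, and 5 of the P0 falls were called higher. Hsd17b1 (4.56), Cnmd (3.58), Cyp11a1 (3.20), Inhba (2.75) and Dhh (2.27) were called higher at E15, and Axin2 (-1.51), Tnfrsf19 (-2.0) and Nkd2 (-1.66) lower. Germ-cell genes were not called at E15 (0 of 20 in either direction, median 0.26), nor were cell cycle genes (0 of 20, median 0.27). Of the Wnt targets, 8 of 22 were called lower and none higher at E15.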

How the data were processed

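RNA of each mouse was amplified once (Pico Ovation) and hybridised to an Affymetrix MOE430 v.2 array. The deposited values are linear intensities, which the authors computed with plier (R) and brought to one global mean on every array. GCOS 1.3 is named in the submitters' notes, and the genome build is not given in the sources used here. The unit of the intensity is arbitrary, and the number of arrays, 3 or 2 a group, limits the precision. Of 45071 probe sets, 64 controls were left out and 45007 kept, of which 34927 have 1 gene symbol, 930 several and 9150 none in the platform table. Symbols were updated through RefSeq, with 34723 probe sets matched. Intensities were divided by their common mean, 0.01 was added, and log2 values were fitted with limma 3.58.1 in R 4.3.3 (15 group means over 43 arrays, empirical Bayes with a trend, two-sided, Benjamini-Hochberg over all 45007 probe sets, called under 0.05). Where several probe sets carried one symbol, the brightest one over the 43 arrays stood for the gene, which gave 18184 genes.

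Earlier results of these data were known when the members, the gene lists and the naming rule were chosen. The rule took Wnt4, Foxl2 and Kit, the 12 largest rises and the 12 largest falls (called, without overlap of the 2 groups, and with the higher group mean above the median probe set), up to 4 called members of each list with the smallest adjusted p, and defining members. Alternatives changed the pseudocount, the scaling, the filter on low values, the arrays in the fit, the variance trend, the probe set of a gene and the replicate block, and left out single arrays. On simulated data for the comparison of Wnt4-null with Kit mutant ovaries, on 18184 genes, the fit recovered 58 of 100 genes changed by 1 on the log2 scale and 99 of 100 changed by 2, with 1 false call among 158. The changed genes were drawn from probe sets above the median signal, the noise was normal and all other genes had no difference. These rates therefore do not cover dim genes or data with as many differences as here.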

Additional observations from a re-analysis of the deposited data

Results flagged for a closer look

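For 7 named genes the difference between the Wnt4 and the Kit mutation was itself called unequal between the background with 1 Foxl2 copy and the one without Foxl2 (limma interaction, 3 arrays in each of 4 groups). Positive values were larger with 1 Foxl2 copy. The interaction was 4.42 for Cnmd, the cartilage matrix protein, and 1.86 for Inhbb, the inhibin beta-B subunit. It was -4.48 for Akr1c18 and -2.27 for Akr1c14, enzymes that inactivate progesterone and reduced androgens. It was -2.62 for Hsd3b1, -3.75 for Ret, a receptor of duct epithelium, and -3.62 for Trim66. The calls of Akr1c18, Trim66 and Ret were lost under 12, 8 and 5 of the alternatives. What set the backgrounds apart was not tested.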

How the results depend on the processing

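All 122 named genes that were called kept their direction under the alternatives (1940 values), and 29 of them lost the call under at least 1 (107 values). Leaving out single arrays moved the called genes between 2616 (without Kit mutant array 1) and 3958 (without Kit mutant array 3) for Wnt4-null against Kit mutant ovaries, between 2827 and 3885 for the contrast without Foxl2, between 50 and 81 for the interaction, between 1926 and 3139 for Wnt4-null and between 3831 and 5121 for Kit mutant against wild type, and between 122 and 265 at E15. A fit of only the arrays compared gave 3335 genes for Wnt4-null against Kit mutant ovaries and 2813 for Wnt4-null against wild type. That fit gave 2539 genes without Foxl2, 46 for the interaction, 3313 for Kit mutant against wild type and 198 at E15. The share of rises among the calls was 37.5% as deposited, 54% after quantile normalization and 71.3% after centring on the median, and for Kit mutant against wild type 56.5% as deposited and 43.9% after quantile normalization.

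Of the 10 named genes that were not called, 2 (Nobox and Mc2r) gained a call, under 11 settings in all. Signs turned only for named genes that were not called. Fgf9 gave 0.0124 with centring and 0.0381 as the mean of its probe sets. Gdf9 gave 0.131 with quantile normalization, 0.186 with centring and -0.695 to 0.286 with single arrays left out. Kit gave 0.0784, 0.198 and 0.168 with quantile normalization, centring and the mean of its probe sets, and -0.341 to 0.305 with single arrays left out. With single arrays left out, Zp2 gave -1.306 to 0.567 and Zp3 -3.062 to 1.598.

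With the replicate number as a block, 4395 genes were called between Wnt4-null and Kit mutant ovaries, 4161 without Foxl2, 83 for the interaction, 3072 and 5626 against wild type and 385 at E15. Same-numbered arrays deviated together little (correlations of 0.016, 0.055 and 0.020, and 2 of 3 numbers correlated best with their own). Whether they shared a litter or a batch cannot be told from these values. Signals near the background limit the low genes, since their differences depend on the value added before the logarithm.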
